A study of Mus musculus with 2 samples.

Results

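The 7 genes described here, Cbx2, Cbx6, Cbx7, Cbx8, Phc1, Phc2 and Phc3, encode subunits of canonical Polycomb repressive complex 1 (PRC1). They were listed by name and are 7 of the 32228 genes counted. In canonical PRC1, a catalytic core of RING1A or RING1B with a PCGF protein places ubiquitin on histone H2A. A CBX subunit reads trimethylated lysine 27 of histone H3, the mark written by PRC2, and thereby brings the complex to silenced genes. A PHC subunit holds complexes together through a domain that forms chains, which compacts Polycomb chromatin. Each complex carries a single CBX and a single PHC paralog, so the paralog a cell expresses sets which form of the complex it can assemble. In blood cells, Cbx7 is known for maintaining self-renewal, while Cbx2 and Cbx8 are linked to committed cells.

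CD45+ cells of the colonic LP were sorted from DSS-treated C57BL/6 mice aged 8 to 10 weeks per the labels, DSS being dextran sulfate sodium, a sulfated polysaccharide given to mice to injure the colonic epithelium and cause colitis. The study compared WT mice with Ring1aKO mice, which carry a knockout of Ring1a, to ask how the loss of this PRC1 subunit changes LP immune cells. Cells of 5 mice per genotype were pooled into 1 10x Genomics 3′ library each, so 1 library stood for each group, no test was made between them, and genotype and library cannot be told apart. All intervals below are 95% intervals for counting error only. They are exact, except those of the change in the ratio of Phc3 to Phc2, which are normal approximations.

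The libraries held 74414511 UMIs (unique molecular identifiers, each marking 1 captured transcript) for WT and 81862096 for Ring1aKO. Barcodes with at least 1000 UMIs, at least 500 genes and less than 5% mitochondrial UMIs were kept as cells, which gave 6005 WT cells with a median of 6354 UMIs and 7918 Ring1aKO cells with a median of 5035 UMIs, with 11 barcodes in common. Ring1, the targeted gene, had 13.4 CPM (UMIs of the gene per 1000000 UMIs found in the same cells) in WT and 11.8 CPM in Ring1aKO, a log2 ratio of -0.18. Over all kept cells, the 3′ count of Ring1 thus did not separate the libraries. Within the classes described below, its log2 ratio was -0.48 (-0.77 to -0.20) in plasma cells and -0.47 (-0.83 to -0.12) in T cells. It was -0.05 (-0.38 to 0.29) in B cells and -0.31 (-0.91 to 0.25) in myeloid cells, and neutrophils had 3 UMIs in each library. Since the deleted part of the gene is not given in the sources used here, these counts could not check the label. Directions below are therefore those of the library labelled Ring1aKO over the library labelled WT.

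Cells were assigned to 5 classes by a single marker each, namely Cd79a for B cells, Jchain for plasma cells, Cd3e for T cells, Lyz2 for myeloid cells and S100a8 for neutrophils. The B class held 1141 WT cells and 3571 labelled Ring1aKO. The plasma class held 664 and 682, the T class 1514 and 1631, the myeloid class 1070 and 477, and the neutrophil class 176 and 205. A further 1239 and 1037 cells met no gate (ungated, among them innate lymphocytes and dendritic cells by Ncr1, Gata3 and Flt3), and 201 and 315 met gates of different lineages and were set aside. Of 7 markers per class, all were highest in their own class in both libraries except Prdm1 for plasma cells and Fcer1g, Tyrobp and Cst3 for myeloid cells. The 7 include the gate gene of the class, which the gate itself makes high there, so that gene is no check.

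Cbx6 (ENSMUSG00000089715, chr15:79823896-79834688, minus strand, GRCm38) and Cbx7 (ENSMUSG00000053411, chr15:79915807-79971119, minus strand) are both on chromosome 15. Cbx2 (ENSMUSG00000025577, chr11:119022962-119031270, plus strand) and Cbx8 (ENSMUSG00000025578, chr11:119036305-119040969, minus strand) lie close together on chromosome 11. Phc1 (ENSMUSG00000040669, chr6:122317731-122340561, minus strand), Phc2 (ENSMUSG00000028796, chr4:128654702-128752881, plus strand) and Phc3 (ENSMUSG00000037652, chr3:30899371-30969415, minus strand) are on separate chromosomes. Their longest annotated transcripts range from 3580 bases for Cbx8 to 10976 bases for Phc3, with 7850 for Cbx6 and 3949 for Phc2. A 3′ library counts a transcript once whatever its length, so CPM was not divided by length, and a comparison between genes assumes that their transcripts were captured equally.

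The promoter windows of Phc2 and Phc3 are shown because these paralogs differed in opposite directions between the libraries. Each runs from 250 bases before to 50 bases after an annotated start, 5′ to 3′ on the gene's strand, from RefSeq on GRCm38.p6, with every CG pair in capitals. The Phc3 window is chr3:30969366-30969665 on the minus strand. The Phc2 windows are chr4:128654452-128654751 and chr4:128727321-128727620 on the plus strand.
Phc3: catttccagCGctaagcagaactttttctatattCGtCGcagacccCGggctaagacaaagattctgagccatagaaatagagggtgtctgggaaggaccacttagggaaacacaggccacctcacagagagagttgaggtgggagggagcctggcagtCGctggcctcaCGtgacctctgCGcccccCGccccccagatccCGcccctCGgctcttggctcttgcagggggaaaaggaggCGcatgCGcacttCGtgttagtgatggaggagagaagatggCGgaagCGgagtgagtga
Phc2, upstream start: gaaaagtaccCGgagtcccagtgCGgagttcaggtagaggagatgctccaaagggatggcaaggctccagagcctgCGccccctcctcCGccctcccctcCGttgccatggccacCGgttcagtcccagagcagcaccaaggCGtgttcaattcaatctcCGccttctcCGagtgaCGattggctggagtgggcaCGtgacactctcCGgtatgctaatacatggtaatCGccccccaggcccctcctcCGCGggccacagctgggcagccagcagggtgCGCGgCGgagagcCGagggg
Phc2, downstream start: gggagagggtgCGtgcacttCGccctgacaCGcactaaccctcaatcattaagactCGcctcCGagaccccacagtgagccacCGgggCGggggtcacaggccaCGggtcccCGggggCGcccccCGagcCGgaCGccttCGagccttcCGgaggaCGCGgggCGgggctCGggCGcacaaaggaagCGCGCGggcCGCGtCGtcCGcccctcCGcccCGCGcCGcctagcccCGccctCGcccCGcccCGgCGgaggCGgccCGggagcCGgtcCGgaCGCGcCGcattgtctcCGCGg
The Phc3 window held 15 CG pairs, a number reached by 34.6% of the 32851 windows of all genes, and the upstream Phc2 window held 19, reached by 28.1%. The downstream Phc2 window held 45, reached by 1.93%, and a start between them (chr4:128688488-128688787) held 2, reached by 85.9%. The windows of Cbx6, Cbx7, Cbx8 and Phc1 held 31, 33, 24 and 9. A 3′ count does not show from which start a Phc2 transcript came.

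Cbx7 led the CBX genes and Phc2 led the PHC genes in both libraries. Together the 7 genes gave 7660 UMIs in WT and 9890 in the library labelled Ring1aKO. Of the UMIs of the 4 listed CBX genes, Cbx7 held 66.1% (64.1 to 68.0) in WT and 71.8% (70.3 to 73.4) in the library labelled Ring1aKO. Cbx6 held 21.5% and 15.9%, Cbx8 held 10.0% and 11.2%, and Cbx2 held 2.35% and 1.05%. Of the PHC UMIs, Phc2 held 51.6% (50.2 to 52.9) in WT and 62.2% (61.0 to 63.3) in the library labelled Ring1aKO, whereas Phc3 held 38.6% (37.3 to 40.0) and 27.1% (26.0 to 28.2). Phc1 held 9.76% and 10.8%, with overlapping intervals. The balance between Phc2 and Phc3 was thus the difference among paralogs that was largest in percentage points. A share of this kind does not depend on the library total, but it does depend on the mix of classes. By class, the Cbx7 share in WT and in the library labelled Ring1aKO was 77.0% and 85.7% in B cells and 53.0% and 72.1% in myeloid cells. It was 51.0% and 60.1% in ungated cells, 78.5% and 74.1% in plasma cells, and 54.4% and 53.3% in T cells.

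The lymphoid classes carried more CBX transcript than the myeloid and neutrophil classes. The 4 CBX genes together had 66.0 CPM in WT B cells, 59.1 CPM in T cells and 32.2 CPM in plasma cells, against 6.50 CPM in myeloid cells and 3.46 CPM in neutrophils. The 3 PHC genes together had 164 CPM in WT B cells, 133 CPM in T cells and 78.8 CPM in myeloid cells, against 32.1 CPM in plasma cells and 25.4 CPM in neutrophils. In CPM, plasma cells, which differentiate from B cells, thus held a CBX level between those of T and myeloid cells. Their PHC interval (29.7 to 34.7) overlapped that of neutrophils (15.9 to 38.4). CPM is a share of the UMIs of a class, and the median WT plasma cell had 27764.5 UMIs against 4178 in B cells. The 664 WT plasma cells held 647 CBX and 644 PHC UMIs, and the 1141 WT B cells held 404 and 1005. Counted per cell, plasma cells thus did not stand below B cells. The levels of single genes below are in CPM too.

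Cbx7 had its highest CPM in the B class. It had 50.8 CPM (45.3 to 56.8) in WT B cells and 57.7 CPM (54.3 to 61.3) in those labelled Ring1aKO. In T cells it had 32.1 and 32.6 CPM, in plasma cells 25.3 and 24.0 CPM, and in myeloid cells 3.45 and 8.33 CPM. The order B, T, plasma, then myeloid or neutrophil was the same in both libraries with no overlap of intervals among the first 3 classes, and neutrophils, with 3 and 4 UMIs, were not separable from myeloid cells. The T class held the highest Cbx6 level, 16.2 CPM (13.9 to 18.9) in WT and 16.1 CPM (13.9 to 18.6) in the library labelled Ring1aKO. No Cbx6 UMI was found in neutrophils, which allows up to 3.46 and 2.85 CPM at 3 counts. Cbx8 was also highest in T cells, with 8.20 CPM (6.55 to 10.1) in WT and 10.9 CPM (9.05 to 12.9) in the library labelled Ring1aKO, where the interval overlapped that of neutrophils. Cbx2 was near the limit of detection, with 54 UMIs in WT and 34 in the library labelled Ring1aKO, of which 26 and 18 were in T cells.

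In CPM, Phc2 and Phc1 were highest in B cells and Phc3 in T cells. Phc2 had 94.4 CPM (86.9 to 102) in WT B cells and 107 CPM (102 to 112) in those labelled Ring1aKO. Its levels in T cells (54.1 and 65.0 CPM) and myeloid cells (54.1 and 70.9 CPM) overlapped within each library, and those in neutrophils (12.7 and 11.4 CPM) and plasma cells (12.2 and 11.0 CPM) overlapped as well. Phc1, with 18.9 CPM in WT B cells and 18.6 CPM in those labelled Ring1aKO, fell to 1.59 and 2.03 CPM in plasma cells. Phc3 had 66.4 CPM (61.5 to 71.6) in WT T cells and 42.7 CPM (39.0 to 46.6) in those labelled Ring1aKO, above the B class in each library (50.8 and 35.9 CPM).

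**Figure D1:**
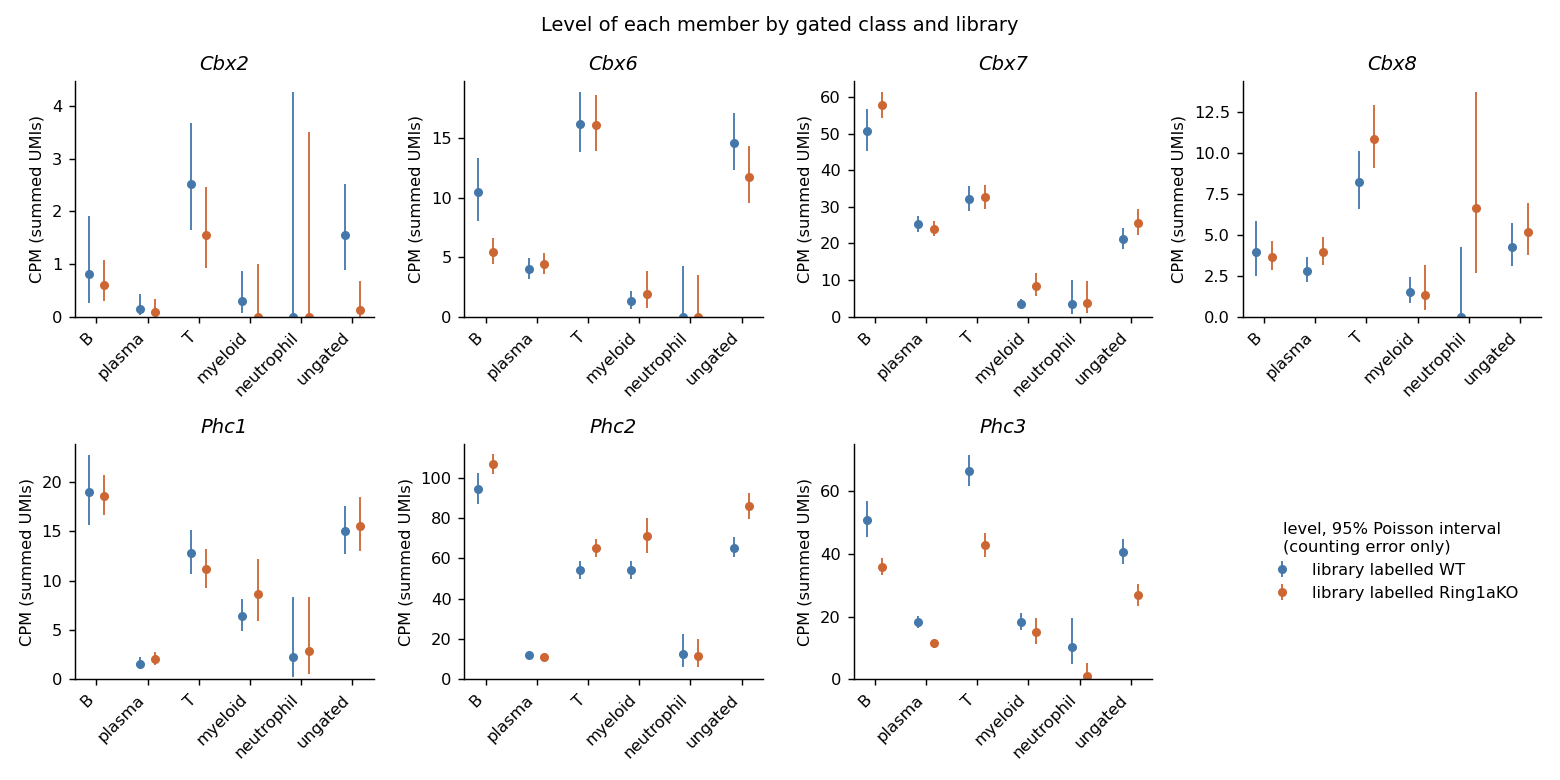
Level of each of the 7 genes in CPM (vertical axes, scaled per gene) in the 5 gated classes and in ungated cells, for the library labelled WT (blue) and the library labelled Ring1aKO (orange). Points are summed UMIs scaled to CPM, and bars are 95% Poisson intervals of the counts. Cbx7, Phc1 and Phc2 stand highest in the B class and Cbx6, Cbx8 and Phc3 in the T class, and Phc3 is lower in the library labelled Ring1aKO in each class shown.

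Over all kept cells, 4 members were higher and 3 lower in the library labelled Ring1aKO. Cbx8 was past a log2 ratio of 0.5 (0.50, interval 0.26 to 0.75, 230 and 364 UMIs) and Cbx2 past -0.5 (-0.83, interval -1.49 to -0.18). These 2 of 7 stand beside 29.0% of the 13790 genes that had 50 or more UMIs in the libraries together, of which 5.50% of genes were higher and 23.5% lower, so the share of members past the fold was near the background. Cbx7 had a log2 ratio of 0.47 (0.37 to 0.56), Phc2 of 0.42 (0.35 to 0.49) and Phc1 of 0.29 (0.12 to 0.45). Cbx6 had -0.09 (-0.27 to 0.09) and Phc3 -0.36 (-0.46 to -0.27). The median of all genes was -0.15, and relative to it Cbx6 stood at 0.06 and Phc3 at -0.22. The B class, where Cbx7, Phc1 and Phc2 were highest, made up 19.0% of the WT cells and 45.1% of those labelled Ring1aKO. With the same mix of classes in both libraries, the log2 ratios of these genes became 0.12 for Cbx7, 0.050 for Phc1 and 0.25 for Phc2, that of Phc3 became -0.54, and that of Cbx8 was 0.43. The values within classes below do not depend on this mix.

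Within classes, few members passed the fold. In the B class 1 of 6 members with at least 50 UMIs did (27.1% of all genes), in the plasma class 1 of 6 (34.7%), in the T class 1 of 6 (21.9%) and in the myeloid class 1 of 4 (27.6%). In ungated cells it was 1 of 6 (26.3%), and no member reached 50 UMIs in neutrophils, where 39.1% of the genes that did were past the fold. None of these shares stood above the background of its class. Cbx6 was lower past the fold in B cells, as 21.7% of all genes were. Phc3 was so in plasma cells (31.3% of all genes), T cells (14.0%) and ungated cells (21.2%). Cbx7 was higher past the fold in myeloid cells, as 9.64% of all genes were. The median over the members was -0.06 in B cells, 0.03 in plasma cells, 0.01 in T cells and 0.41 in myeloid cells, beside medians of all genes of -0.17, -0.30, -0.03 and -0.10.

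**Figure D2:**
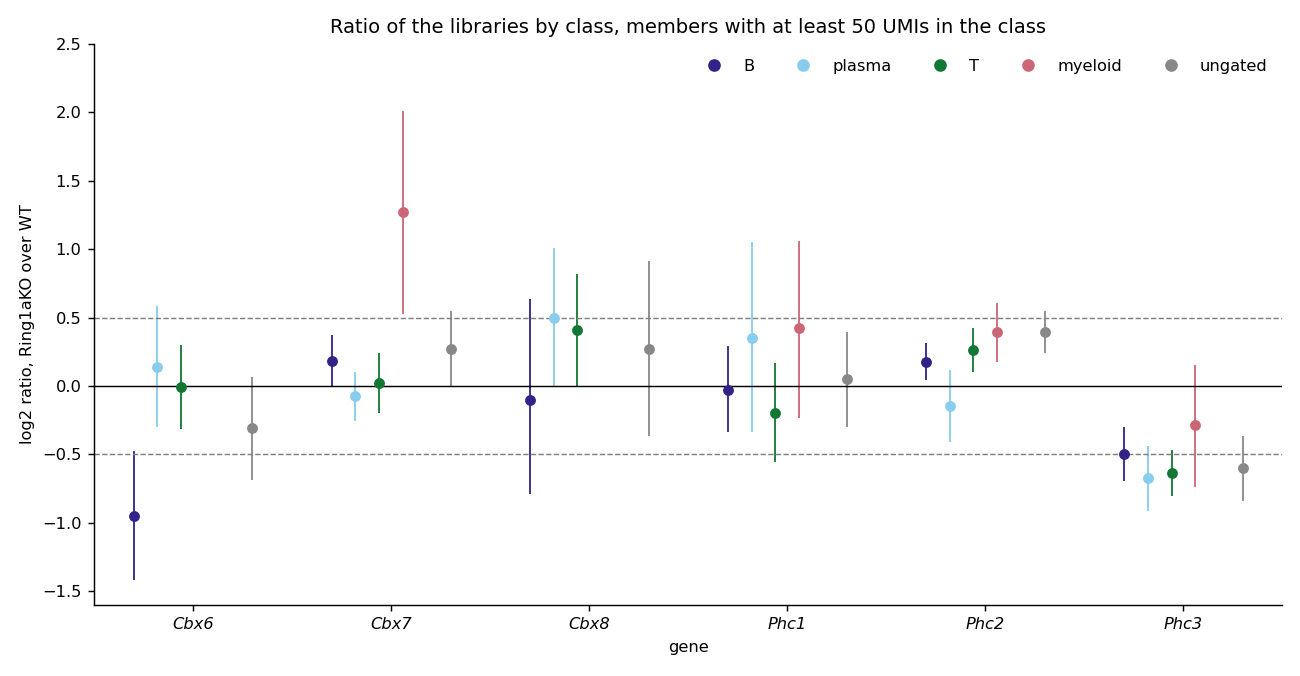
Log2 ratio of the library labelled Ring1aKO over the library labelled WT (vertical axis) for each member with at least 50 UMIs in a class, coloured by class. Bars are exact 95% intervals for counting error, and dashed lines mark log2 ratios of 0.5 and -0.5. Phc3 lies below 0 in every class shown, Phc2 above 0 except in plasma cells, Cbx6 reaches -0.95 in B cells and Cbx7 reaches 1.27 in myeloid cells.

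Phc3, a PHC paralog, was the member most often lower in the library labelled Ring1aKO. In T cells it had 688 UMIs in WT and 495 in the library labelled Ring1aKO, that is 66.4 and 42.7 CPM, a log2 ratio of -0.64 (-0.81 to -0.47). In plasma cells it had 18.3 and 11.5 CPM (-0.67, interval -0.91 to -0.44). The plasma value came inside the fold with median-of-ratios scaling (-0.39), without immunoglobulin genes in the total (-0.41) and as a mean over cells (-0.24). In B cells it had 50.8 and 35.9 CPM (-0.50, interval -0.70 to -0.30), just inside the fold. In ungated cells it had 40.6 and 26.8 CPM (-0.60, interval -0.84 to -0.36). Myeloid cells had 18.3 and 15.0 CPM, with an interval that held 0 (-0.74 to 0.15). In neutrophils there were 9 UMIs and 1 UMI, a log2 ratio of -3.45 with an interval of -8.90 to -0.60. The lower level was not seen in the set-aside cells with gates of different lineages, which had 23.5 and 28.0 CPM (0.25, interval -0.16 to 0.67).

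The T class was split further by Foxp3, the factor of regulatory T cells, and by the coreceptors Cd8a and Cd4. Phc3 was lower in each of these groups and in the remaining T cells. It had 92.7 CPM in WT and 58.7 CPM in the library labelled Ring1aKO in Foxp3 cells (-0.66), 52.3 and 31.5 CPM in Cd8a cells (-0.73) and 78.8 and 43.5 CPM in Cd4 cells (-0.86). T cells outside these 3 groups had 57.6 and 42.5 CPM (-0.44, interval -0.79 to -0.09). Within each library, Cd8a cells had less Phc3 than Cd4 cells, by log2 ratios of -0.59 (-0.88 to -0.30) in WT and -0.47 (-0.86 to -0.07) in the library labelled Ring1aKO. Among ungated cells, those with Flt3, a receptor of dendritic cells, had 23.1 and 12.2 CPM (-0.92), and those with Gata3, a factor of group 2 innate lymphocytes, had 70.6 and 47.8 CPM (-0.56). The remaining ungated cells had 43.9 and 32.2 CPM (-0.45, interval -0.81 to -0.09). The interval held 0 in some finer groups, among them ungated Ncr1 cells, B cells in division and myeloid cells with much C1qa. Ncr1 is a receptor of natural killer cells and C1qa a macrophage gene. The Ncr1 cells had 48.1 and 42.2 CPM (-0.19, interval -0.96 to 0.55). B cells in division had 25.9 and 28.9 CPM (0.16, interval -0.67 to 1.01). Myeloid cells with much C1qa had 20.7 and 22.8 CPM (0.14, interval -0.76 to 1.04). Those with little C1qa had 18.0 and 12.3 CPM, past the fold (-0.55, interval -1.13 to -0.01).

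The direction of Phc3 went along with transcript length. All tested genes were put into 10 bands by their longest annotated transcript, and the median log2 ratio fell at each step from the second band to the tenth in each class, in T cells from 0.23 in the second band to -0.37 in the tenth. Phc3, at 10976 bases, is in the tenth band, whose median was -0.44 in B cells, -0.62 in plasma cells, -0.26 in myeloid cells and -0.38 in ungated cells. Relative to its band, Phc3 stood at -0.06 in B cells, -0.06 in plasma cells, -0.02 in myeloid cells, -0.22 in ungated cells and -0.26 in T cells, and over all kept cells at 0.015. In T cells 23.9% of the genes of its band had a ratio as low or lower. The part that this length relation, which covered all genes, had in the Phc3 values was not tested.

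**Figure D3:**
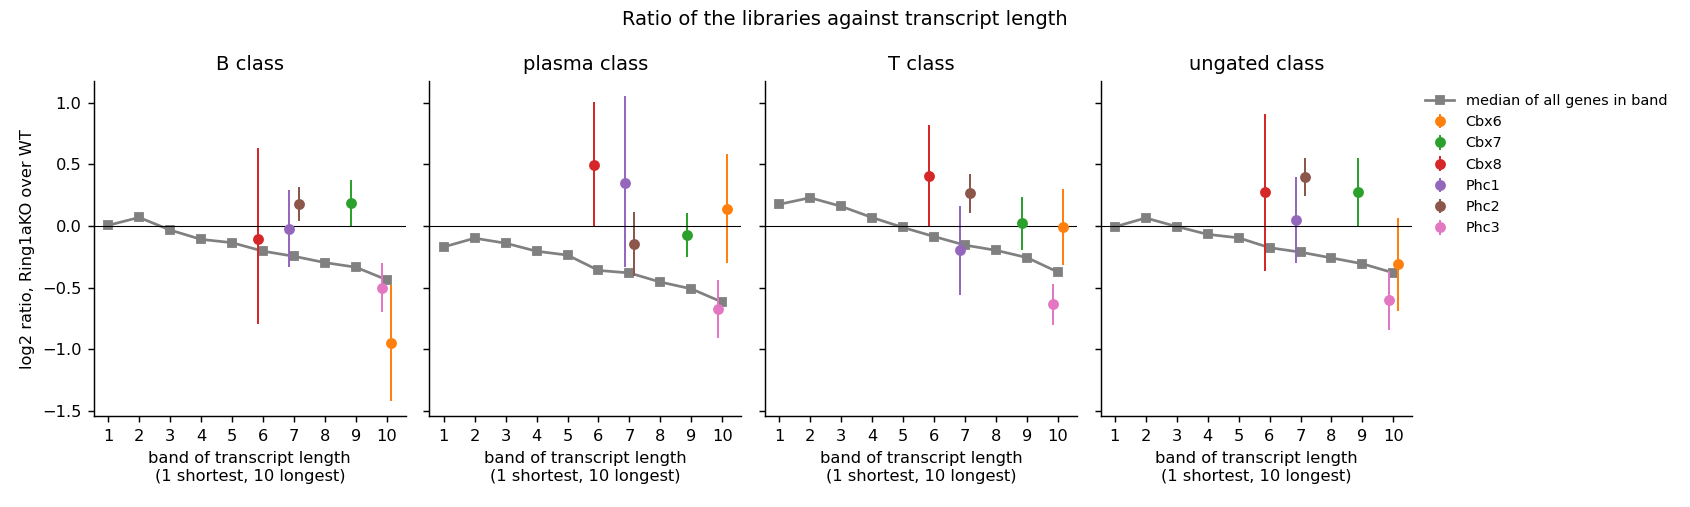
Median log2 ratio of all tested genes (grey squares, vertical axis) in 10 bands of longest annotated transcript, from shortest to longest (horizontal axis), in 4 classes, with members at their own band and exact 95% counting intervals. The medians fall toward the longest band, where Phc3 and Cbx6 lie, and Phc3 is within 0.06 of its band in B and plasma cells and below it in T cells.

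Phc2 was higher in the library labelled Ring1aKO in B, T, myeloid and ungated cells. The log2 ratio was smaller in size than that of Phc3 in each of these but myeloid cells. In T cells it had 561 UMIs in WT and 754 in the library labelled Ring1aKO, 54.1 and 65.0 CPM, a log2 ratio of 0.26 (0.11 to 0.43). In B cells the log2 ratio was 0.18 (0.04 to 0.31), in myeloid cells 0.39 (0.17 to 0.61) and in ungated cells 0.40 (0.24 to 0.55). None of these passed the fold of 0.5. In plasma cells it was -0.15 (-0.41 to 0.12), which is 0.15 above the median of all genes there and became 0.12 when immunoglobulin genes were left out of the total, so plasma cells gave no stable direction. The myeloid value also turned, to -0.02, when the gates were set 2 times as high, and to -0.20 with cells of 2000 to 10000 UMIs. It was 1.02 (0.55 to 1.50) in myeloid cells in division and 0.21 (-0.04 to 0.46) in the others. Myeloid cells with little C1qa had 0.52 (0.28 to 0.75), past the fold, and those with much C1qa had 0.06 (-0.54 to 0.66). Of the 3 gated T cell groups, Cd8a cells had 50.3 and 78.2 CPM (0.64, interval 0.36 to 0.92), Cd4 cells had 55.7 and 50.1 CPM (-0.15, interval -0.52 to 0.21) and Foxp3 cells had 42.3 and 46.7 CPM (0.14, interval -0.31 to 0.61), an interval that overlapped that of Cd8a cells. T cells outside these groups had 63.7 and 75.8 CPM (0.25, interval -0.04 to 0.54). Within the library labelled Ring1aKO, Cd8a cells exceeded Cd4 cells by 0.64 (0.33 to 0.97), and within WT the value was -0.15 (-0.47 to 0.18). Relative to its band of transcript length, Phc2 stood at 0.42 in B cells, 0.24 in plasma cells and 0.42 in T cells. It stood at 0.53 in myeloid cells and 0.61 in ungated cells, so it was farther from its band than Phc3 in each of these classes.

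The leading PHC paralog of the T class differed between the libraries. Phc3 held 49.8% (47.1 to 52.5) of the PHC UMIs of WT T cells and Phc2 held 40.6% (38.0 to 43.3). In the library labelled Ring1aKO, Phc2 held 54.7% (52.0 to 57.4) and Phc3 held 35.9% (33.4 to 38.5). The finer T cell groups did not all follow this. In Foxp3 cells Phc3 was the higher in both libraries, with 136 UMIs against 62 of Phc2 in WT and 152 against 121 in the library labelled Ring1aKO, where the intervals of the levels overlapped. The levels also overlapped in Cd4 cells labelled Ring1aKO (43.5 CPM of Phc3, 50.1 CPM of Phc2) and in WT Cd8a cells (52.3 and 50.3 CPM), whereas Cd8a cells labelled Ring1aKO had 31.5 and 78.2 CPM. In plasma cells Phc3 held 57.1% in WT and 46.9% (42.6 to 51.2) in the library labelled Ring1aKO, where it overlapped Phc2 with 44.8% (40.6 to 49.1). Phc2 led in B, myeloid and ungated cells of both libraries. The log2 change in the ratio of Phc3 to Phc2 was -0.68 (-0.91 to -0.44) in B cells, -0.53 (-0.87 to -0.18) in plasma cells, -0.90 (-1.13 to -0.67) in T cells, -0.68 (-1.16 to -0.20) in myeloid cells and -1.00 (-1.28 to -0.72) in ungated cells. In the set-aside cells it was -0.02 (-0.52 to 0.49). The T cell medians of the length bands of Phc2 and Phc3 were -0.16 and -0.37, and their part in this was not tested.

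**Figure D4:**
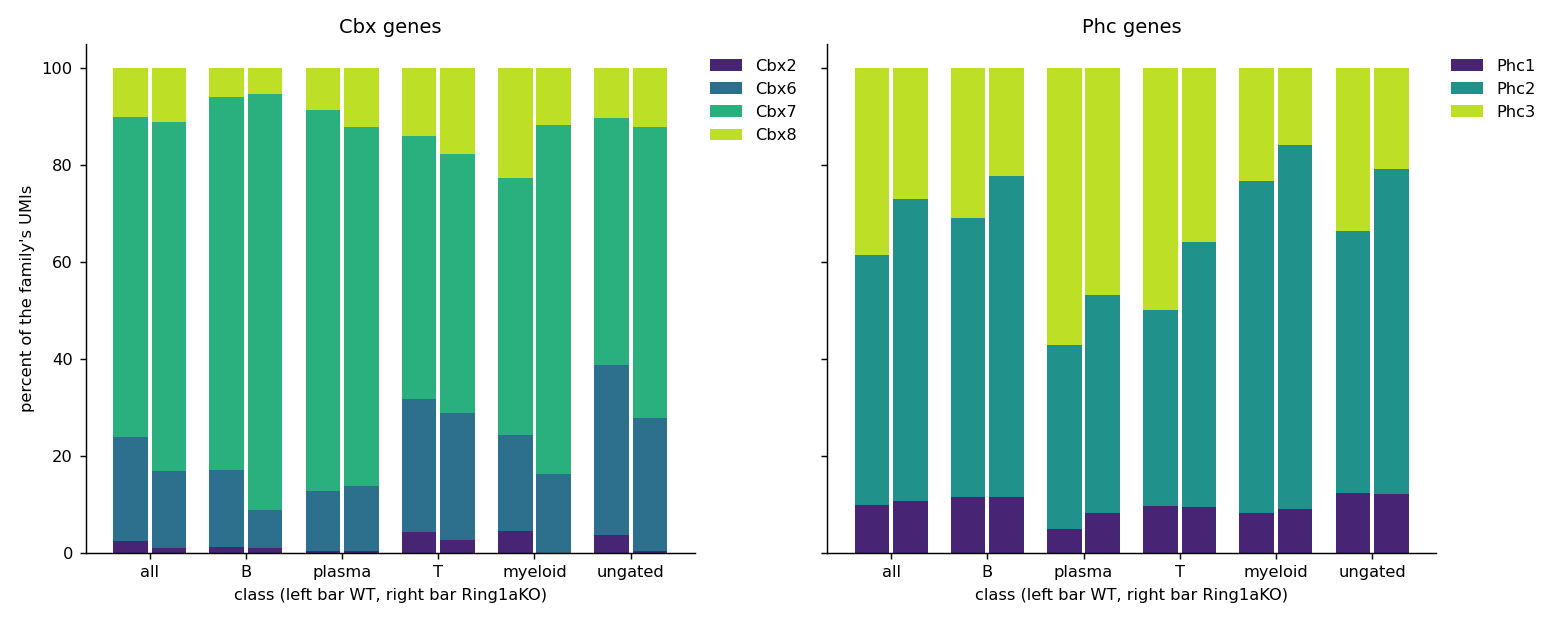
Percent of the UMIs of the 4 CBX genes (left panel) and of the 3 PHC genes (right panel) held by each paralog, for all kept cells and for 5 classes, with the library labelled WT as the left bar and the library labelled Ring1aKO as the right bar of each pair. Cbx7 holds the greatest CBX share in each bar, and the Phc3 share of T cells is 49.8% in WT and 35.9% in the library labelled Ring1aKO.

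Phc1, the remaining PHC paralog, had an interval that held 0 in each class in which it reached 50 UMIs. Its log2 ratio was -0.03 (-0.33 to 0.29) in B cells, where it had 116 and 341 UMIs, and -0.19 (-0.56 to 0.17) in T cells. It was 0.35 (-0.33 to 1.05) in plasma cells and 0.43 (-0.23 to 1.06) in myeloid cells, with 32 UMIs in WT plasma cells and 32 in myeloid cells labelled Ring1aKO. The summed level of the 3 PHC genes was 164 and 161 CPM in B cells (-0.03, interval -0.13 to 0.08). It was 133 and 119 CPM in T cells (-0.17, interval -0.27 to -0.06). In plasma cells it was 32.1 and 24.5 CPM (-0.39, interval -0.56 to -0.22), where the median of all genes was -0.30. The sum was higher in myeloid cells (0.26, interval 0.08 to 0.45) and in the set-aside cells (0.30, interval 0.07 to 0.54). In ungated cells the interval held 0 (0.08, interval -0.03 to 0.20).

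For the 4 CBX genes together, the interval held 0 in the lymphoid classes and in ungated cells. Their summed log2 ratio was 0.03 (-0.13 to 0.20) in B cells, 0.01 (-0.15 to 0.16) in plasma cells, 0.05 (-0.11 to 0.21) in T cells and 0.04 (-0.17 to 0.24) in ungated cells. The sum was higher in myeloid cells, with 6.50 and 11.5 CPM (0.83, interval 0.24 to 1.41), and in the set-aside cells (0.49, interval 0.16 to 0.82). Cbx7 alone had an interval that held 0 in plasma cells (-0.08, interval -0.25 to 0.10) and T cells (0.02, interval -0.20 to 0.24). In B cells it had 0.18, with a lower bound just above 0 (0.001 to 0.37), and stood 0.36 above the median of all genes. The plasma value of Cbx7 was 0.22 above the median of all genes and became 0.19 without immunoglobulin genes in the total. These intervals bound the differences and do not show that the levels were equal.

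Cbx7, the most abundant of the 4 listed CBX genes, was past the fold in myeloid cells, on few UMIs. There were 35 UMIs in WT and 31 in the library labelled Ring1aKO, 3.45 CPM (2.40 to 4.79) and 8.33 CPM (5.66 to 11.8), a log2 ratio of 1.27 (0.53 to 2.01). In this class 1.50% of all genes had a ratio as high or higher. The 916 WT and 317 labelled Ring1aKO myeloid cells with little C1qa had 3.11 and 7.97 CPM (1.36). Markers of B cells, where Cbx7 had its highest CPM, were also higher in myeloid cells labelled Ring1aKO. The 7 B cell markers, none of them at 0, summed to 47.8 CPM in WT myeloid cells and 126 CPM in those labelled Ring1aKO, which is 0.864% and 2.08% of their sum in B cells. At those shares, B cell RNA would bring 0.439 and 1.20 CPM of Cbx7. The B cell markers include Cd79a, whose gate kept cells rich in it out of the myeloid class, so the shares may be too low. T cell markers differed likewise, summing to 24.4 CPM in WT myeloid cells and 47.5 CPM in those labelled Ring1aKO. The part of RNA from other cells in the Cbx7 value was not tested.

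Cbx6 was past the fold in B cells. It had 64 UMIs in WT and 99 in the library labelled Ring1aKO, 10.5 CPM (8.05 to 13.3) and 5.40 CPM (4.39 to 6.57), a log2 ratio of -0.95 (-1.42 to -0.48), and its share of the CBX UMIs of B cells was 15.8% and 8.01%. The intervals of the levels did not overlap. Its transcript is in the longest band too, and it stood 0.52 below the median of that band. The value moved to -0.27 when only cells with 2000 to 10000 UMIs were used and to -0.46 as a mean over cells. Cbx6 did not differ in this way in T cells, where it had 168 and 187 UMIs (-0.01, interval -0.32 to 0.30), nor in plasma cells (0.14, interval -0.30 to 0.58). In ungated cells as a whole it had -0.31, with an interval that held 0 (-0.69 to 0.07). Those with Gata3 had 47 and 15 UMIs of Cbx6, 31.3 and 14.4 CPM, a log2 ratio of -1.13 (-2.07 to -0.26). The interval held 0 in ungated cells with Flt3 (-0.35, interval -1.28 to 0.55) and with Ncr1 (0.40, interval -1.45 to 2.20). It also held 0 in the remaining ungated cells (0.07, interval -0.47 to 0.61).

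Cycling cells, taken as those with at least 2 UMIs of the division genes Mki67 and Top2a together, moved with the Cbx6 value. They made up 4.56% of WT B cells and 1.71% of those labelled Ring1aKO, with 15.2% and 5.47% of the UMIs of the class. In WT B cells, Cbx6 had 26.9 CPM in cycling cells and 7.51 CPM in the others, a log2 ratio of 1.84 (1.06 to 2.60), and in those labelled Ring1aKO 12.0 and 5.02 CPM (1.25, interval 0.25 to 2.13). Among B cells that were not cycling, the log2 ratio between the libraries was -0.58 (-1.14 to 0.00).

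Cbx7 in B, T and ungated cells, Phc3 in ungated cells and Cbx2 in T cells differed between cycling and other cells in the same direction in both libraries. Cbx7 was lower in cycling B cells, with 25.9 against 55.3 CPM in WT (-1.10, interval -1.76 to -0.49) and 28.9 against 59.4 CPM in the library labelled Ring1aKO (-1.04, interval -1.62 to -0.51). It was also lower in cycling T cells, by -0.89 (-1.42 to -0.39) and -0.75 (-1.22 to -0.30), and in cycling ungated cells, by -1.11 (-1.73 to -0.54) and -1.44 (-2.22 to -0.74). In plasma cells this was not seen, with -0.01 (-0.31 to 0.29) and 0.34 (-0.01 to 0.67), nor in myeloid cells, with 0.43 (-1.01 to 1.65) and 0.57 (-0.80 to 1.78) on 7 and 8 UMIs in cycling cells. Cbx2 went the other way, with 7.20 against 1.43 CPM in WT T cells (2.34, interval 1.12 to 3.58) and 3.59 against 1.07 CPM in those labelled Ring1aKO (1.75, interval 0.21 to 3.24). Phc3 was lower in cycling ungated cells, by -0.98 (-1.40 to -0.58) in WT and -1.11 (-1.80 to -0.49) in the library labelled Ring1aKO. In B cells it had -1.10 (-1.76 to -0.49) and -0.33 (-0.92 to 0.21). In plasma cells it had 0.39 (0.06 to 0.71) and 0.37 (-0.14 to 0.86), and in T and myeloid cells all intervals held 0. Cbx8 was higher in cycling WT B cells, on 11 and 13 UMIs, by 2.24 (0.94 to 3.52), and by 1.23 in those labelled Ring1aKO, with an interval that held 0 (-0.05 to 2.30). Cbx6 over all kept cells had -0.18 (-0.51 to 0.14) in WT and 0.66 (0.33 to 0.97) in the library labelled Ring1aKO, so the libraries did not share a direction there. Cycling cells were deeper, with medians of 14792 and 14244 UMIs against 5863 and 4895, and the part of this depth was not tested.

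The low counts of Cbx2 and Cbx8 gave few further comparisons. Over all kept cells Cbx2 had 0.873 CPM in WT and 0.493 CPM in the library labelled Ring1aKO, and outside cycling cells its log2 ratio was -0.47. In ungated cells it had 16 UMIs and 1 UMI, a log2 ratio of -3.69 with an interval of -9.08 to -1.01. Markers of other cells differed there too, with 4 epithelial markers, none at 0, summing to 406 and 149 CPM and 3 fibroblast markers to 695 and 482 CPM, and their part was not tested. Cbx8 had log2 ratios of 0.496 (-0.005 to 1.01) in plasma cells and 0.41 (-0.002 to 0.82) in T cells. Both were short of the fold, with intervals that held 0. The plasma value passed the fold with median-of-ratios scaling (0.79), without immunoglobulin genes in the total (0.76) and with gates at 0.5 and 2 times the thresholds (0.54 and 0.58). In neutrophils there was no Cbx8 UMI in 176 WT cells and 7 in 7 of 205 cells labelled Ring1aKO, which is 6.65 CPM (2.67 to 13.7), while 3 counts in WT would give 3.46 CPM, within that interval. In the set-aside cells Cbx8 had 6 and 29 UMIs, a log2 ratio of 2.31 (1.02 to 3.87).

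**Figure D5:**
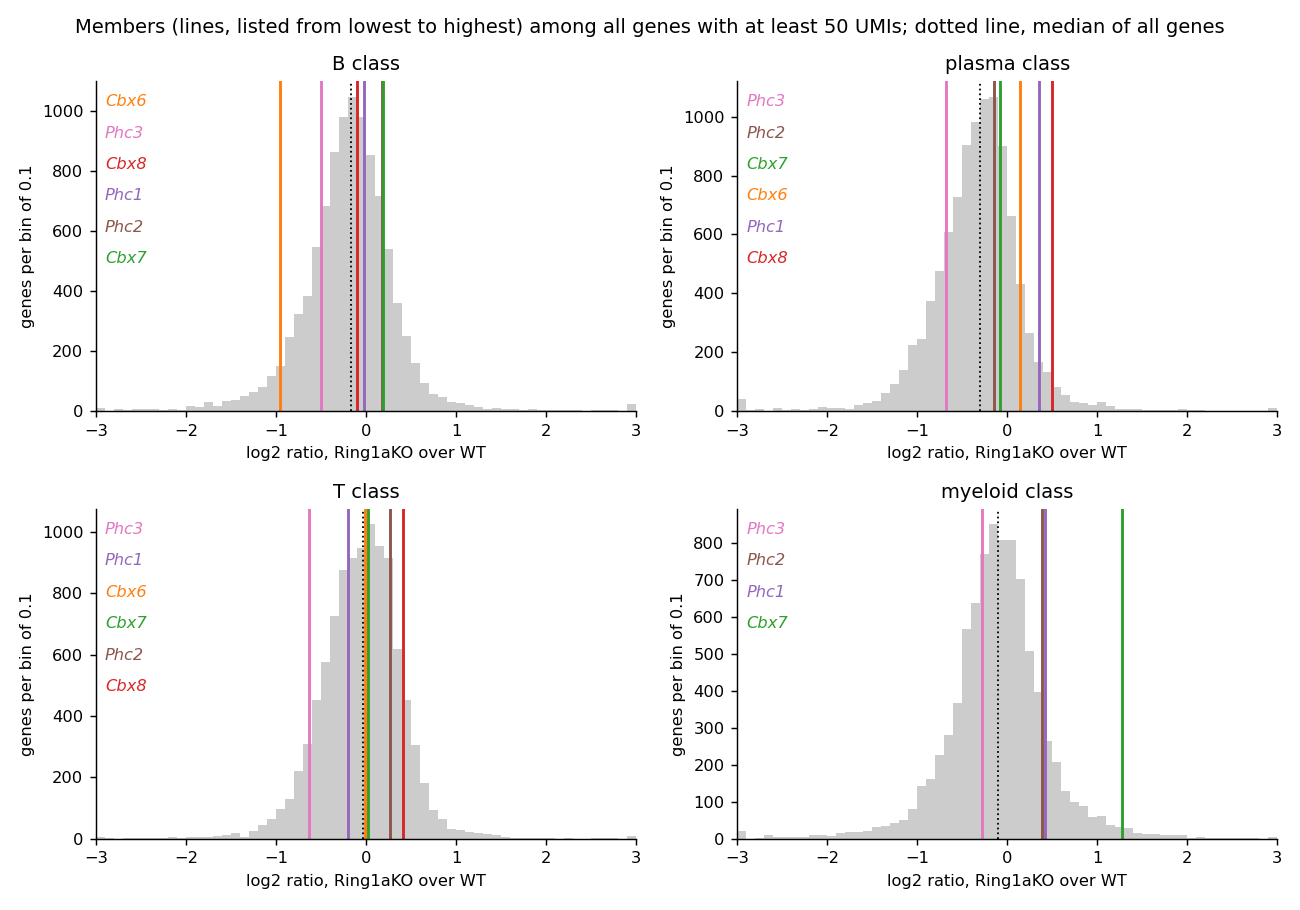
Histograms of the log2 ratios of all genes with at least 50 UMIs (vertical axis, genes per bin, the end bins holding all values beyond them) in 4 classes, with the members as coloured lines listed from lowest to highest and the median of all genes as a dotted line. Most members lie within the bulk of the genes. Toward the tails are Cbx6 in B cells, with 5.73% of genes as low or lower, and Cbx7 in myeloid cells, with 1.50% as high or higher. Cbx8 and Phc1 in plasma cells, with 3.40% and 5.41% of genes as high or higher, lie there too.

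Free RNA was measured in barcodes too shallow to be cells. In barcodes with fewer than 100 UMIs, Phc2 had 59.1 CPM in WT and 78.2 CPM in the library labelled Ring1aKO, Cbx7 had 40.9 and 58.8 CPM, and Phc3 had 25.2 and 26.6 CPM. From the Jchain level in the classes outside plasma cells, free RNA was estimated at 1.87% to 3.16% of their UMIs. Jchain is also a gate gene, and cells with at least 50 per 10000 UMIs were kept out of these classes. The gate thus caps the estimate, which may be too low. At these shares, free RNA would be a minor part of most levels. It would give Cbx7 0.764 and 1.81 CPM of the 3.45 and 8.33 CPM in myeloid cells. For Phc3 in T cells it would give 0.547 and 0.712 CPM of the 66.4 and 42.7 CPM.

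Across the 5 classes and the ungated cells of both libraries, 12 points in all, Phc1 and Phc2 had the most similar patterns among the members, with a Pearson r of 0.96 on log2(CPM + 1). The points share cells of 2 libraries and differ in depth, so r is a description. Among 11273 genes, those most like Phc2 were Hnrnpf, an RNA-binding protein (0.99), Gdi2 and Rps27a, and those most like Phc3 were Nedd1, a centrosome protein (0.99), Usp48 and Gin1. Cbx7 was most like Rpusd3 (0.98), Cbx6 most like Dut, which removes dUTP (0.99), Phc1 most like Mat2a, which makes S-adenosylmethionine (0.98), and Cbx8 most like S1pr4, a lymphocyte sphingolipid receptor (0.94).

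The other Polycomb genes gave context for the members. Of 13 other PRC1 genes, those with at least 50 UMIs numbered 12 in B cells, 12 in plasma cells, 13 in T cells, 10 in myeloid cells and 1 in neutrophils. Of these, 1, 4, 0, 2 and 1 were lower past the fold, and 1, in myeloid cells, was higher. The neutrophil gene was Rybp, a subunit of variant PRC1, with a log2 ratio of -0.70. Over all genes 21.7%, 31.3%, 14.0%, 18.0% and 29.7% were lower past the fold in these classes. The 3 HP1 chromobox genes, whose products bind methylated lysine 9 instead, reached 50 UMIs in each class but neutrophils, and 2 were lower in B cells and 1 in plasma cells. The 11 PRC2 genes write or steer the mark that CBX proteins read. Of those with enough UMIs, 4 of 11 were lower past the fold in B cells, 5 of 10 in plasma cells and 2 of 11 in T cells. In myeloid cells 2 of 10 were lower and 1, Phf1, was higher (0.90, interval 0.34 to 1.45). In neutrophils 2 of 2 were lower, namely Suz12 and Phf1. Suz12, a core PRC2 subunit, was lower past the fold in all 5 classes, in neutrophils on 33 and 19 UMIs. In T cells it had 107 CPM in WT and 63.2 CPM in the library labelled Ring1aKO (-0.75, interval -0.89 to -0.62). Ezh1, a PRC2 methyltransferase, was lower past the fold in plasma cells (-1.01), T cells (-0.51) and myeloid cells (-0.62). Both were named for passing the fold in at least 3 of 5 classes, and no share of all genes that did so stands beside this.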

How the data were processed

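The deposited files gave unnormalized UMI counts of every gene in every barcode, before any choice of cells, which the authors made with Cell Ranger count. The sources disagree on the rest, since the study's methods name mm10, the matrix header names Cell Ranger 4, and the submitters' processing notes name Cell Ranger 6.0.2 and mm39. Gene positions and lengths came from GENCODE vM21 on GRCm38 and are not coordinates of the files.

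For each class, counts of its cells were added and divided by their total to give CPM, with Python 3.11.15, scipy 1.17.1 and pandas 2.3.3. Gates per 10000 UMIs were 50 for Jchain, 100 for S100a8, 10 for Lyz2 (3 UMIs), 5 for Cd79a (2 UMIs) and 1 for Cd3e. Plasma cells could carry Cd79a and neutrophils Lyz2. No doublet caller was run. Levels have exact Poisson, shares Clopper-Pearson and ratios conditional binomial intervals. The change in the ratio of Phc3 to Phc2 has a normal approximation on the log scale. A ratio was past the fold at 0.5 in size with at least 50 UMIs. The computation of ratios and exact intervals was checked on simulated Poisson counts of known fold. Those counts held no spread between cells, mice or libraries, so the check says nothing about such spread.

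The members, lists and gates were chosen with earlier results of these data known. All members were named. Other Polycomb genes were named when past the fold in at least 3 of 5 classes. Outside this rule, Ring1 was named as the targeted gene, and Rybp and Phf1 as genes past the fold in neutrophils. For each member with at least 200 UMIs the 3 genes with the highest correlation were taken, of which 1 to 3 are printed. Further CBX paralogs are not reported here. Alternatives covered cell filters, gates, scaling, class mix and free RNA.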

Additional observations from a re-analysis of the deposited data

Results flagged for a closer look

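The log2 ratios of 3 members had opposite signs in a pair of classes, with counting intervals that did not overlap. The difference was 1.09 for Cbx6 (0.14 in plasma cells, -0.95 in B cells), 1.35 for Cbx7 (1.27 in myeloid cells, -0.08 in plasma cells) and 0.54 for Phc2 (0.40 in ungated cells, -0.15 in plasma cells). With 1 library per group these differences were not tested between animals. Each pair includes the plasma class, where the median of all genes was -0.30. The plasma intervals all held 0 (Cbx6 -0.30 to 0.58, Cbx7 -0.25 to 0.10, Phc2 -0.41 to 0.12), so the sign there is not settled. The share of all genes that meet this rule was not counted, so the number of members has no background beside it. Without immunoglobulin genes in the total, the plasma values of Cbx7 and Phc2 were 0.19 and 0.12, and the signs no longer differed.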

How the results depend on the processing

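No paired analysis was possible because each genotype had 1 library, and likewise no replicate was left out. Of 388 class ratios under the alternatives, 360 stayed within their main counting interval and 28 moved beyond it. Setting no floor of UMIs does not change a ratio, so its values stayed by construction. Of the ratios past the fold in the main setting, 0 changed sign. Sign changes of ratios inside the fold, such as those of Phc2 in plasma and myeloid cells, were not counted. Over all kept cells, median-of-ratios scaling gave log2 ratios of 0.60 for Cbx7, 0.55 for Phc2 and -0.23 for Phc3. The mean over cells gave -0.29 for Cbx6 and 0.50 for Phc2. With an equal class makeup, Cbx7 had 0.12, Phc1 0.050, Phc2 0.25 and Phc3 -0.54. Among alternatives chosen after seeing the data, cells of 2000 to 10000 UMIs gave -0.45 for Cbx6 and -0.51 for Phc3. Relative to genes of like transcript length, Cbx6 had 0.29, Cbx7 0.76, Phc1 0.47, Phc2 0.60 and Phc3 0.015, so Cbx6 and Phc3 changed sign there. The causes of these changes were not tested.

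The number of members past the fold was 1 in each class but neutrophils. In B cells it became 2 with mitochondrial shares up to 10%, with fewer than 6000 genes per cell, with cells of 2000 to 10000 UMIs, without cycling cells, with gates at 0.5 or 2 times the thresholds and with free RNA subtracted. In plasma cells it became 2 without cycling cells, with either gate change, with median-of-ratios scaling, without immunoglobulin genes in the total and without a floor. With median-of-ratios scaling and without immunoglobulin genes, the 2 were Cbx8 (0.79 and 0.76) and Phc1 (0.64 and 0.62), and Phc3 was not among them (-0.39 and -0.41). In T cells it became 2 without cycling cells, with a floor of 20 UMIs and without a floor. In myeloid cells it became 2 with mitochondrial shares up to 10%, median-of-ratios scaling, the mean over cells, a floor of 20 UMIs and no floor. With cells of 2000 to 10000 UMIs it became 0 in plasma and myeloid cells, and without a floor it became 1 in neutrophils. The share of all genes past the fold was counted in the main setting only. These numbers under the alternatives therefore cannot be read against a background.

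The Cbx7 share of the CBX UMIs in the library labelled Ring1aKO became 75.9% with cells of 2000 to 10000 UMIs, 74.0% without cycling cells and 76.0% as a mean over cells. The Phc2 share of the PHC UMIs in WT became 48.9% and 50.2% in the first and last of these. Cbx7 in myeloid cells kept its direction in 13 alternatives, from 1.01 to 1.55, and so did Phc3 in T cells, from -0.67 to -0.26. The 13 include the setting without a floor, where the ratio is the main value by construction. Depth limited Cbx2 in all classes and every member in neutrophils.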
